A study of Vitis amurensis with 6 samples.

Results

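Sugar made in a grape leaf moves through a small set of membrane carriers and sucrose-splitting enzymes, and 10 genes of that set are described here among the 31845 gene identifiers of a leaf RNA sequencing table. They are the hexose transporter genes HT1, HT3 and HT5, a pair of tonoplast sugar transporter genes, 1 cell wall invertase gene, the vacuolar invertase genes GIN1 and GIN2, and the sucrose transporter genes SUC27 and SUC11. The genes were chosen by identifier, with earlier results of these data known, and all 10 were found in the table. The table pairs identifiers with no names. The names and functions used here are those by which the genes were listed. For 3 genes (both tonoplast genes and the cell wall invertase gene) the list writes the identifier beside the function, and for the other 7 the names were matched to the identifiers by their order in the list. None was checked against an annotation.

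The leaves came from wild-type Vitis amurensis, a cold-hardy wild grape, grown in vitro to an age of one month on B5 medium with the auxin IBA. The control group of 3 libraries came from untreated plants at 26 °C, and the cold group of 3 libraries from plants held for 2 h in a prechilled incubator at 4 °C, both in light of about 100 µmol per square metre and second. The comparison asks which of these genes had changed early in chilling. Separate plants or cultures for the libraries are not stated in the labels, so the p-values reflect the spread among these samples, part of which may be technical. They give no hour of sampling, so the 2 h that passed and the transfer of the plants cannot be told apart from the temperature. The leaf label was not checked against marker genes, since no annotation was used here. Whole leaves were sequenced, so fewer cells of a type and less RNA per cell cannot be told apart.

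Sucrose is the form in which leaves export carbon through the phloem. Sucrose transporters of the SUC family carry it across membranes together with protons. Invertases split it into glucose and fructose, the cell wall enzymes outside the cell and the vacuolar enzymes inside the vacuole. Hexose transporters of the HT family bring the resulting hexoses into the cell, and tonoplast sugar transporters load sugars into the vacuole. In Arabidopsis, chilled leaves store sugars in their vacuoles and the tonoplast carriers take part in that storage.

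The library totals, recovered from the FPKM values, were between 16437001 and 21217704 reads. By these totals all 3 libraries of the cold group were deeper than the control group's deepest. Levels are given in FPKM, a read count divided by gene length and library size, and can be compared between genes. Fold changes were fitted as differences in log2(FPKM + 1), which understates the change of genes with low levels. Of the 17155 genes whose mean over the 6 libraries reached 1 FPKM, 21.0% were higher and 13.4% lower in cold (limma-trend, adjusted p under 0.05). The share of calls that were higher was 61.1% with the deposited scaling, 49.8% after median-of-ratios scaling and 45.5% after quantile normalization. Control library 1 stood apart: 621 tested genes (3.62%) were at least 2-fold above both other control libraries in it, where the other 5 libraries had between 54 and 178 such genes within their own groups.

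Of the 10 genes, 9 passed the filter on low levels, 4 of them were higher and 1 was lower in cold, against 21.0% and 13.4% of all tested genes, and 4 were not called. The cold libraries all lay above the control libraries for 5 of the 9 and below them for 1, where the shares of all tested genes were 31.6% and 19.7%. GIN1 did not pass the filter. The cell wall invertase gene and GIN2 passed it only through their levels in cold, since both had control means under 1 FPKM. The genes were also chosen with earlier results of these data known. The counts and the median are therefore a description and not evidence about these genes as a group. The median log2 change was 0.61 over the 9 tested genes and 0.28 over the 7 whose control mean alone reached the filter, and that of all tested genes was 0.08.

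**Figure D1:**
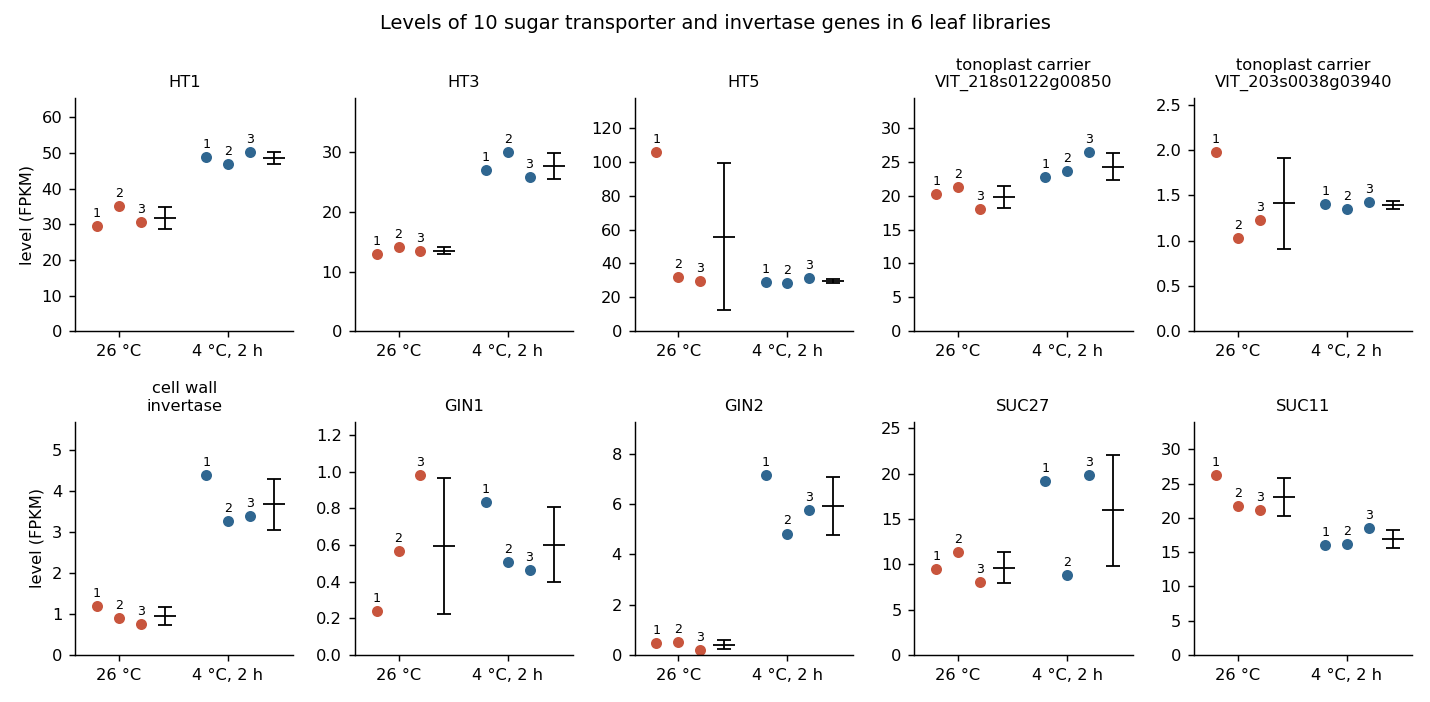
Level in FPKM (vertical axes, linear and starting at 0) of each of the 10 genes in the control (26 °C) and cold (4 °C, 2 h) libraries; points are single libraries with their replicate number, and the bars beside them show the mean ± SD of 3. HT1, HT3, the tonoplast gene VIT_218s0122g00850, the cell wall invertase gene and GIN2 have all cold points above all control points, and SUC11 has all of them below. Control library 1 of HT5 (106 FPKM) and cold library 2 of SUC27 (8.83 FPKM) lie away from the rest of their group.

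The vacuolar invertase gene GIN2 (VIT_202s0154g00090, chromosome field 02 of the identifier) had the largest change of the tested genes described here. Its level was 0.486, 0.523 and 0.214 FPKM in control libraries 1, 2 and 3, and 7.14, 4.83 and 5.77 FPKM in cold libraries 1, 2 and 3. Every cold library was thus at least 9.24 times as high as every control library. The means were 0.407 ± 0.169 and 5.91 ± 1.16 FPKM (SD, n = 3 each), a ratio of 14.5. The control levels rested on 16, 17 and 7 reads and the cold levels on 265, 186 and 242 reads. In control library 3 GIN2 was at least 2-fold below both other control libraries, as were 1.22% of tested genes. GIN2 rose by 2.29 on the log2(FPKM + 1) scale (standard error 0.17; limma-trend with adjusted p = 0.00041), and 98.5% of tested genes had a smaller or more negative change. GIN2 passed the filter only through its levels in cold, so its p-value and its place among tested genes are descriptive. With no filter on low levels the log2 change was also 2.29 (limma-trend, adjusted p = 0.00089). The size depends on the scale at so low a control level: the log2 change was 3.61 with a pseudocount of 0.1 FPKM and 3.89 with limma-voom on the reads.

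GIN1 (VIT_216s0022g00670, chromosome field 16), the other vacuolar invertase gene, was low in both groups. It stood at 0.239, 0.566 and 0.979 FPKM in the control libraries and 0.835, 0.505 and 0.463 FPKM in the cold libraries. The groups overlapped, and the control libraries alone ranged from 15 to 61 reads. With no filter on low levels its log2 change was 0.02, with a 95% confidence interval from -0.43 to 0.48 (limma-trend, adjusted p = 0.94). GIN2 was 2.03, 0.924 and 0.218 times as high as GIN1 in the control libraries and 8.54, 9.56 and 12.4 times as high in the cold libraries.

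The cell wall invertase gene (VIT_209s0002g02320, chromosome field 09), whose enzyme splits sucrose outside the cell, rose as well. Its level was 1.20, 0.890 and 0.760 FPKM in the control libraries and 4.37, 3.25 and 3.38 FPKM in the cold libraries. The lowest cold library was 2.70 times as high as the highest control library. The means of 0.951 ± 0.229 and 3.67 ± 0.610 FPKM (SD, n = 3 each) gave a ratio of 3.85, and the log2 change was 1.26 (standard error 0.15; limma-trend with adjusted p = 0.0019). With limma-voom on the reads the log2 change was 1.94. The cell wall invertase gene also passed the filter only through its levels in cold, so its p-value is descriptive. With no filter on low levels the log2 change was 1.26 (limma-trend, adjusted p = 0.0033).

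Summed over the 3 invertase genes, the level was 1.93, 1.98 and 1.95 FPKM in the control libraries and 12.3, 8.58 and 9.61 FPKM in the cold libraries. The make-up of that sum differed too. In control leaves the cell wall gene held 48.8% ± 12.2, GIN1 30.4% ± 18.9 and GIN2 20.8% ± 8.60 (SD, n = 3 each). In cold leaves GIN2 held 58.0% ± 1.87, the cell wall gene 36.1% ± 1.48 and GIN1 5.82% ± 0.975 (SD, n = 3 each). GIN2 went from 0.424 ± 0.154 to 1.61 ± 0.111 times the level of the cell wall gene (SD, n = 3 each). Even after chilling these were modest transcripts: GIN2 lay above 33.6% of the tested genes in cold and the cell wall gene above 21.7%.

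**Figure D2:**
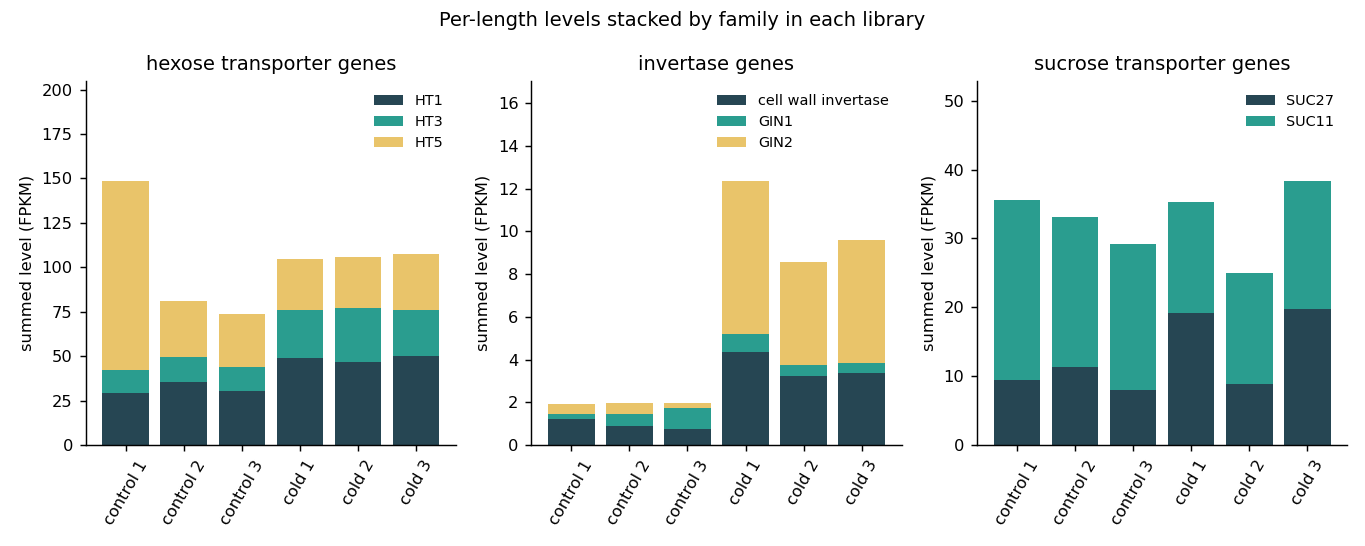
Levels in FPKM (vertical axes, linear, starting at 0) of the hexose transporter, invertase and sucrose transporter genes stacked within each library (horizontal axis), coloured by gene. The invertase stack is 1.93 to 1.98 FPKM in control and 8.58 to 12.3 FPKM in cold, mostly GIN2; the hexose transporter stack of control library 1 is mostly HT5, and the SUC27 part is larger in cold libraries 1 and 3 than in the others.

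Among the hexose transporters, HT3 and HT1 both rose. HT3 (VIT_211s0149g00050, chromosome field 11) stood at 12.9, 14.2 and 13.5 FPKM in the control libraries and at 27.1, 30.1 and 25.8 FPKM in the cold libraries. The groups were well apart, the lowest cold library being 1.82 times as high as the highest control library. The means were 13.5 ± 0.646 and 27.7 ± 2.17 FPKM (SD, n = 3 each), a ratio of 2.04, and the log2 change was 0.98 (standard error 0.09; limma-trend with adjusted p = 0.00068).

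HT1 (VIT_200s0181g00010), a plasma membrane hexose and proton symporter, carries field 00 in its identifier, used for sequence not placed on a chromosome. Its level was 29.5, 35.2 and 30.5 FPKM in the control libraries and 48.8, 46.9 and 50.3 FPKM in the cold libraries. The groups did not overlap, the lowest cold library being 1.33 times the highest control library. The ratio of the means, 31.7 ± 3.03 and 48.7 ± 1.73 FPKM (SD, n = 3 each), was 1.53, and the log2 change was 0.61 (standard error 0.09; limma-trend with adjusted p = 0.0035). HT3 stood at 0.439, 0.405 and 0.441 times the level of HT1 in the control libraries and at 0.555, 0.642 and 0.513 times in the cold libraries, without overlap; HT1 was the higher of the pair in all 6 libraries.

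HT5 (VIT_205s0020g03140, chromosome field 05), also a plasma membrane hexose carrier, showed no difference between the groups that exceeded the spread of its libraries. It was at 106, 31.8 and 29.5 FPKM in the control libraries, from 3863, 1149 and 1072 reads, and at 28.9, 28.7 and 31.3 FPKM in the cold libraries. Control library 1 alone was high, at 3.32 times the higher of the other control libraries, and 1.13% of tested genes were at least as far above in that library. The log2 change was -0.63, with a 95% confidence interval from -1.73 to 0.46 (limma-trend, adjusted p = 0.32). Without control library 1 the control mean was 30.7 FPKM, against 29.6 ± 1.48 FPKM in cold (SD, n = 3), and the log2 change was -0.05 (limma-trend, adjusted p = 0.65). The gene with the next identifier was also highest in control library 1, at 95.3 FPKM against 64.7 and 55.7 FPKM in the other control libraries. The gene with the identifier before HT5 was lowest there, at 9.38 FPKM against 13.4 and 10.9 FPKM. The gene 2 places after HT5 was nearly level, at 17.8 FPKM against 17.4 and 16.4 FPKM. The cause of the high value was not tested.

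In control libraries 2 and 3, HT1 and HT5 stood at nearly the same level, HT5 being 0.905 and 0.965 times as high as HT1, and in the cold libraries it was 0.592 to 0.623 times as high. In control library 1 it was 3.59 times as high. The 3 hexose transporter genes summed to 148, 81.2 and 73.5 FPKM in the control libraries and to 105, 106 and 107 FPKM in the cold libraries. HT1 held between 44.4% and 46.8% of that sum in cold, HT3 between 24.0% and 28.5%, and HT5 between 27.1% and 29.1%.

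Neither tonoplast transporter gene passed the test. The one on chromosome field 18 (VIT_218s0122g00850) was at 20.2, 21.3 and 18.0 FPKM in the control libraries and at 22.7, 23.7 and 26.5 FPKM in the cold libraries. The groups did not overlap, as in 51.4% of all tested genes, but the lowest cold library was only 1.06 times the highest control library. The log2 change was 0.28, with a 95% confidence interval from 0.04 to 0.51 before adjustment (limma-trend, adjusted p = 0.069). The one on chromosome field 03 (VIT_203s0038g03940) was far lower, at 1.98, 1.03 and 1.23 FPKM in the control libraries and 1.40, 1.35 and 1.43 FPKM in the cold libraries. Its log2 change was 0.01, with a 95% confidence interval from -0.41 to 0.43 (limma-trend, adjusted p = 0.98), and the sign turned with the scaling (-0.04 under median-of-ratios scaling, -0.19 under quantile normalization). The gene on field 18 held between 91.1% and 95.4% of the summed level of the pair in each of the 6 libraries.

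**Figure D3:**
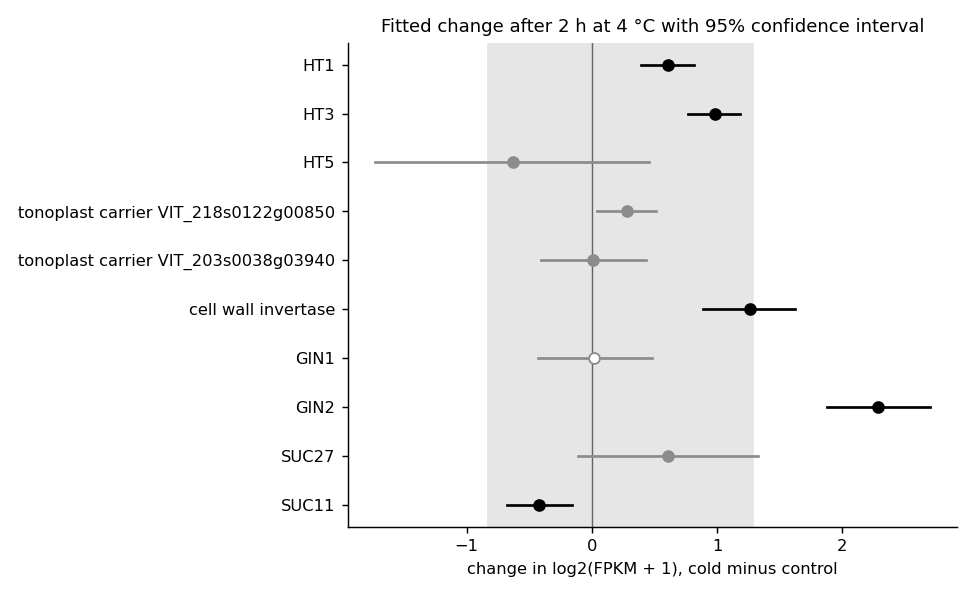
Fitted change in log2(FPKM + 1), cold minus control (horizontal axis), of each gene with its 95% confidence interval; black marks adjusted p under 0.05, grey a gene not called, and the open circle GIN1, from the fit with no filter. The shaded band, from -0.83 to 1.29, holds the middle 90% of all tested genes; of the 10 genes only GIN2 lies outside it.

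Of the sucrose transporter genes, SUC11 fell and SUC27 was not called. SUC11 (VIT_218s0001g08210, chromosome field 18) was at 26.2, 21.7 and 21.2 FPKM in the control libraries and at 16.1, 16.2 and 18.5 FPKM in the cold libraries. All cold libraries were below all control libraries, the highest at 0.874 times the lowest control library. From means of 23.0 ± 2.77 and 16.96 ± 1.37 FPKM (SD, n = 3 each), SUC11 fell to a ratio of 0.736, with a log2 change of -0.42 (standard error 0.11; limma-trend with adjusted p = 0.026). The call was lost when any of 3 libraries was left out. Without control library 2, cold library 1 or cold library 2 in turn, the log2 change was -0.46, -0.38 and -0.39 (limma-trend, adjusted p = 0.053, 0.086 and 0.094).

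SUC27 (VIT_218s0076g00250, chromosome field 18) was at 9.44, 11.4 and 8.02 FPKM in the control libraries and at 19.2, 8.83 and 19.8 FPKM in the cold libraries. Cold libraries 1 and 3 were above every control library, and cold library 2 lay within the range of the control libraries. In that library SUC27 was at 0.460 times the lower of the other cold libraries, and 0.478% of tested genes were at least as far below. The log2 change was 0.61, with a 95% confidence interval from -0.11 to 1.33 (limma-trend, adjusted p = 0.16). Without cold library 2 the cold mean was 19.5 FPKM and the log2 change 0.96 (limma-trend, adjusted p = 0.014), and with library weights the log2 change was 0.22 (limma-trend, adjusted p = 0.57). Of the 9 tested genes, SUC27 was the 1 that lay at least 2-fold below both other cold libraries in cold library 2, and the cause of the low value was not tested.

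Per length, SUC27 stood at 0.360, 0.526 and 0.378 times SUC11 in the control libraries and at 1.19, 0.544 and 1.07 times in the cold libraries. Cold libraries 1 and 3 thus held more SUC27 than SUC11, while cold library 2 was just above the highest control library. The sum of the pair overlapped between the groups, at 35.7, 33.1 and 29.2 FPKM in control and 35.3, 25.0 and 38.4 FPKM in cold.

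In order of mean level, the control leaves held HT5 (55.7 ± 43.3 FPKM), HT1 (31.7 FPKM), SUC11 (23.0 FPKM), the field 18 tonoplast gene (19.9 ± 1.69 FPKM), HT3 (13.5 FPKM), SUC27 (9.63 ± 1.70 FPKM), the field 03 tonoplast gene (1.41 ± 0.499 FPKM), the cell wall invertase gene (0.951 FPKM), GIN1 (0.595 ± 0.371 FPKM) and GIN2 (0.407 FPKM; SD, n = 3 each). The first place of HT5 rests on control library 1: without it the control mean of HT5 was 30.7 FPKM, and HT1 was the higher of the pair in both other control libraries. Neighbours in this order whose control libraries overlapped were HT5 and HT1, SUC11 and the field 18 gene, and each pair from the field 03 gene down to GIN2; the other neighbours did not overlap. In cold leaves the order began with HT1 (48.7 FPKM), HT5 (29.6 FPKM), HT3 (27.7 FPKM) and the field 18 gene (24.3 ± 1.97 FPKM), and went on with SUC11 (16.96 FPKM), SUC27 (15.9 ± 6.18 FPKM), GIN2 (5.91 FPKM) and the cell wall gene (3.67 FPKM). There the libraries overlapped between HT5 and HT3, between HT3 and the field 18 gene, and between SUC11 and SUC27, and no other neighbours did. GIN2, last in control, thus stood above the cell wall gene, the field 03 gene (1.39 ± 0.0418 FPKM) and GIN1 (0.601 ± 0.204 FPKM) in cold.

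**Figure D4:**
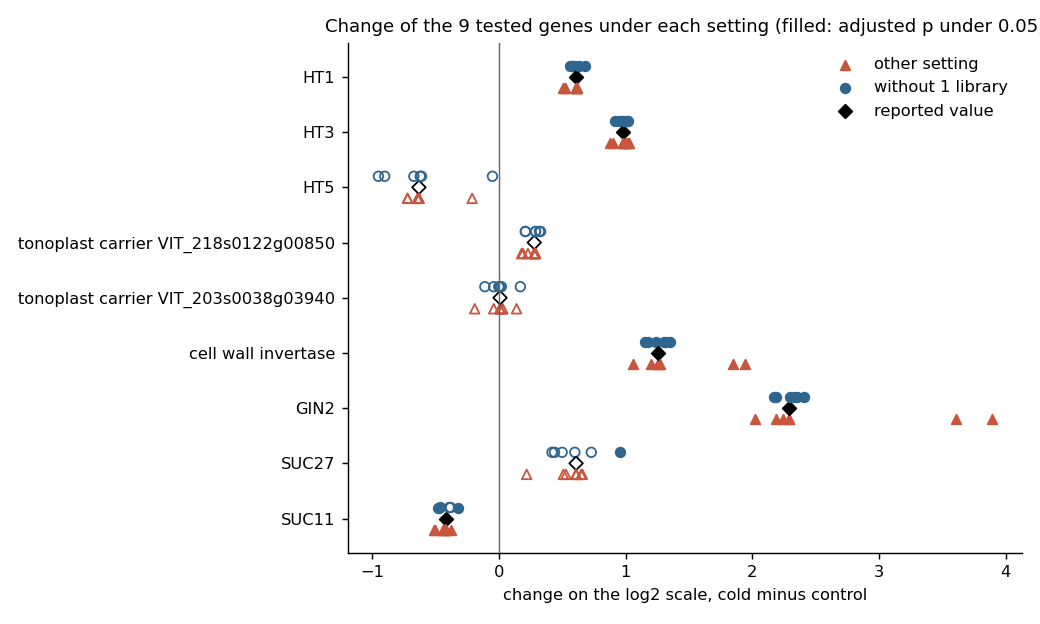
Change on the log2 scale, cold minus control (horizontal axis), of the 9 tested genes as reported (diamonds), with 1 library left out (circles) and under other settings (triangles); filled symbols have an adjusted p under 0.05. HT1, HT3, the cell wall invertase gene and GIN2 are filled under each setting that tested them, HT5 moves to -0.05 without control library 1, and SUC27 is filled only without cold library 2.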

How the data were processed

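The authors deposited one table of FPKM values, 1 column per library, in leaves of 6 Vitis amurensis samples, 3 control and 3 cold. FastQC, cutadapt, STAR, HTSeq and DESeq2 are named, per the submitters' processing notes, without versions or roles. For the genome build, the annotation and reads shared between similar genes, the sources used here give nothing. Libraries were prepared with an Illumina TruSeq RNA kit, per the labels' protocols.

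Genes averaging 1 FPKM or more across the 6 libraries were tested by limma-trend (limma 3.58.1, R 4.3.3) on log2(FPKM + 1), two-sided, adjusted by Benjamini-Hochberg across the 17155 genes tested and called at 0.05. Relative depths of the libraries were taken from the commonest ratio of low FPKM values between libraries. Once scaled by these depths, the FPKM values within a gene were whole multiples of one step. Library totals and reads per gene were recovered from these steps. All 25054 genes above 0 came out whole within 0.01 reads or, for high counts, within rounding of the deposited values. A gene whose counts share a divisor was given the smallest whole counts. The reads served for depth and for limma-voom. Other steps used Python 3.11.15.

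The genes were chosen with earlier results of these data known; all 10 are named. Lists of other sugar genes, marker genes and promoter motifs needed an annotation and were not analysed here. Alternatives covered the pseudocount, the filter, scaling, library weights, the replicate number as a block, limma-voom and leaving out each library.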

Additional observations from a re-analysis of the deposited data

How the results depend on the processing

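HT1, HT3, the cell wall invertase gene and GIN2 stayed called and higher in cold under each alternative that tested them, with log2 changes of 0.51 to 0.68, 0.88 to 1.03, 1.06 to 1.94 and 2.02 to 3.89. HT5 and the field 18 tonoplast gene were called under none of 14 alternatives (limma-trend or limma-voom, adjusted p of at least 0.20 and 0.054), and SUC27 under 1 of 14. The field 03 tonoplast gene changed sign with median-of-ratios scaling (-0.04) and quantile normalization (-0.19), and ranged from -0.11 to 0.17 with a library left out. SUC11 was called under 10 of 14. With a replicate block its log2 change stayed at -0.42 (limma-trend, adjusted p = 0.076). Under the block 0 of the 9 tested genes described here were called lower, where 9.48% of all tested genes were. So small a count is a description and says nothing of these genes as a group. The block gave 2480 genes higher and 1627 lower in the whole table, and libraries sharing a number did not vary together (correlations of deviations -0.26, -0.13 and -0.28). Under a filter of 5 FPKM, 6 of the 10 genes were tested and 2 were higher, as were 23.1% of the 12090 genes tested. With library weights 4931 tested genes were higher and 3549 lower. With 1 library left out, 2253 to 4180 tested genes were higher and 1425 to 2746 lower, the fewest without cold library 2, and 4 to 5 of the genes described here higher and 0 to 1 lower. The cause was not tested. On the recovered reads only limma-voom was fitted, and the other planned count models were not run. At the control levels of GIN1 and GIN2, 7 to 61 reads per library limit the precision.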

Other observations

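The genes next to these 10 in the identifier numbering showed no common direction. Of the 40 identifiers within 2 places on either side, 29 were tested, 10 were higher and 5 lower in cold (limma-trend, adjusted p under 0.05), where 21.0% and 13.4% of all tested genes were. GIN2 stood among tested neighbours that were not called, with log2 changes of -0.35, 0.03 and -0.15. Elsewhere it was the reverse. The tested neighbours of GIN1 were higher in cold, with log2 changes of 0.87 and 1.10 (limma-trend, adjusted p = 0.0053 and 0.0059). Those of SUC27, which was not called, were higher too, both with a log2 change of 0.34 (limma-trend, adjusted p = 0.025 and 0.036). Neighbours were taken by identifier alone and were not checked against a genome.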
